A study of Mus musculus with 6 samples.

Results

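Chemokines and their receptors were followed in whole mouse hearts after a high fat diet (HFD) or a normal diet (ND). The members were chosen by name: every probe other than a control whose gene name starts with Ccl, Cxcl, Ccr or Cxcr and a digit, and those of Cx3cl1 and Cx3cr1. This gave 67 of the 55681 probes of the array, for 53 genes. Male C57BL/6 mice carrying no stated transgene received standard chow or a diet with 60% of its kcal as fat from 4 weeks of age for 4 months, and the hearts of 3 mice per diet were taken. RNA of each heart was read on 1 Agilent array in 1 colour. The whole organ was used, with all its cell types. The p-values set the difference between the diets against the spread between hearts of the same diet. The labels name no litters or cages, so these cannot be told apart from diet.

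Chemokines are small secreted proteins that attract leukocytes along a gradient, and their receptors are G protein-coupled receptors on the arriving cells. They are named after the spacing of conserved cysteines (CC, CXC and CX3C). Some, such as Cxcl12, are made constitutively by stromal and endothelial cells, while others, such as Ccl2 and Cxcl10, are induced by inflammatory signals or interferons. In the healthy heart most receptor-bearing leukocytes are resident macrophages, with smaller numbers of monocytes, dendritic cells, mast cells and lymphocytes.

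The part of the family that differed most between the diets was small and ran in both directions. The myeloid chemokines Ccl6 and Ccl9 and the receptors Cx3cr1 and, by its 1 tested probe, Ccr8 were lower in HFD-fed mouse hearts. Cxcl9, Cx3cl1 and 1 probe of Ccl27a were higher. The brighter probe of Cxcl9 stood at 150.5% of the ND level, and that of Cx3cr1 at 44.0%. Under alternative analyses, an unadjusted p below 0.05 was lost in 11 of 18 for that probe of Cx3cr1 and in 10 of 17 for Ccr8. It was lost in 8 of 18 for the probe of Ccl27a and in 3 of 17 for Cx3cl1. For Ccl6, Ccl9 and Cxcl9 it was lost in none. Ccl4 and Ccl17 also had higher levels in HFD, but they entered the test through the HFD hearts alone. Their calls therefore do not stand as support for a direction. They were well above background in 1 ND heart each, so that the size of their differences is uncertain. With a background correction called normexp the difference of Ccl4 dropped from 1.61 to 0.50 on the log2 scale. None of these differences passed adjustment over all probes. The monocyte chemoattractants Ccl2 and Ccl7 had wide differences between hearts of the same diet and were not called.

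Levels are log2 intensities relative to the 75th percentile of the array, so that a level of 0 is the brightness at that percentile. Differences are HFD minus ND on this log2 scale. A probe was tested when it was well above background on all 3 arrays of at least 1 diet, which 27590 probes were. On an array, 49.2% to 53.0% of all probes were well above background, the 75th percentile was an intensity of 453 to 544, and saturation was not seen. The arrays shared 1 slide, whose first row held HFD 1 and HFD 2 and whose second row held HFD 3 and the 3 ND arrays. HFD 2 had the lowest slope of the spike-in controls (0.896, against 0.92 to 0.96), and its summed level of 5 atrial cardiomyocyte markers was 56.2 times the 75th percentile, against 198 to 1149 in the other hearts. The 6 ventricular cardiomyocyte markers, which check the labelled tissue, were well above background in every heart and summed to 2629 to 2681 in ND and 2349 to 2861 in HFD.

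Of the 67 probes, 37 probes of 29 genes were well above background on all 6 arrays, and 16 probes were so on none. The test covered 40 probes of 31 genes, 22 ligands and 9 receptors. For 13 genes no probe was well above background on any array: Ccl1, Ccl22, Ccl26, Ccl28, Cxcl2, Cxcl3, Cxcl15 and Cxcl17 among the ligands, and Ccr1, Ccr1l1, Ccr4, Ccr6 and Cxcr1 among the receptors. For these the arrays gave only a bound, which does not show that the RNA was missing. By the software's less strict significance flag, 8 of the 13 were above background on 1 array or more, Ccr6 and Cxcl17 on all 6, and 8 of the 67 probes were so on none. Another 9 genes were well above background on some arrays and not tested. Ccl3, Cxcl13 and Cxcr3 were so on 1 ND and 2 HFD arrays, Ccr9 and Cxcr2 on 1 of each diet, Ccl20, Ccr3 and Cxcl5 on 1 HFD array, and Cxcr5 on 1 ND array.

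**Figure D1:**
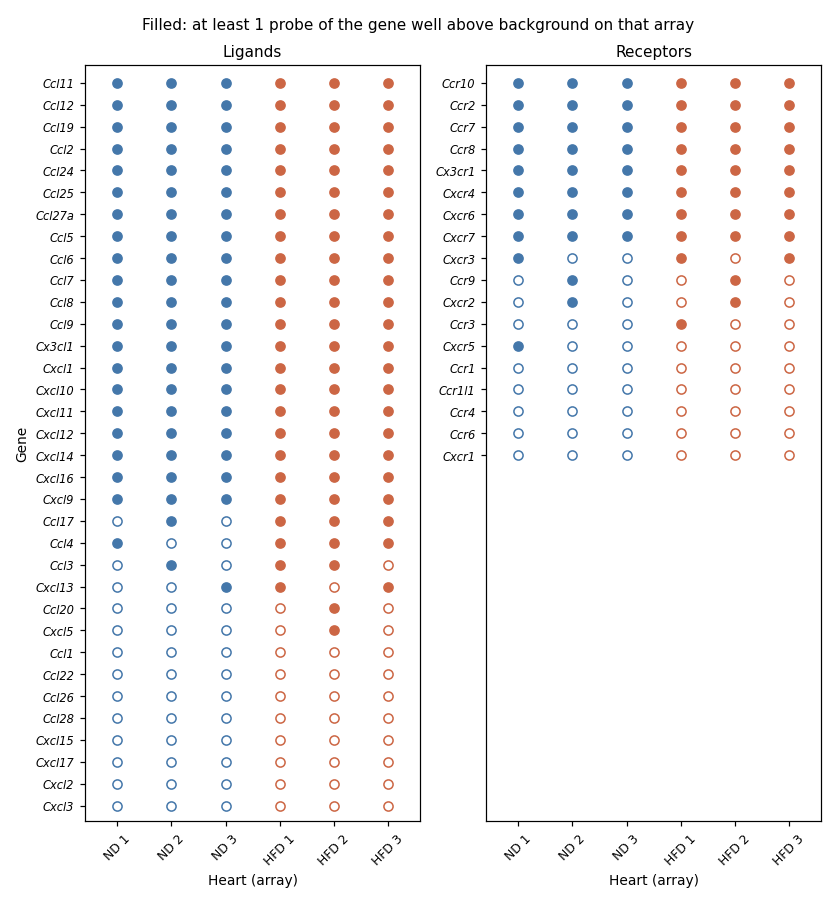
Detection of 52 of the genes on the 6 arrays (columns, hearts; rows, genes; blue, ND; orange, HFD; filled circle, at least 1 probe of the gene well above background). Filled rows hold 28 genes, 13 genes have no filled circle, and Ccl4 and Ccl17 are filled in all HFD hearts and in 1 ND heart.

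Of the 40 probes tested, 11 had an unadjusted limma p below 0.05 (27.5%). HFD was higher for 6 and lower for 5. Over all 27590 probes the share was 11.9%, with 5.24% higher and 6.63% lower. After Benjamini-Hochberg adjustment over all probes limma called 0 of the 40, as against 4 of all probes (0.0145%). The methods' t-test had 9 of the 40 at an unadjusted p below 0.05 (22.5%, against 11.4% of all probes) and also left 0. For 13 probes (32.5%) the diets did not overlap, 7 higher and 6 lower, and over all probes this held for 19.0% (7.92% higher and 11.1% lower). Those of Ccl4 and Ccl17 entered the test through the HFD hearts alone, where they were high. The dimmer probe of Cx3cr1, not called, entered it through the ND hearts alone, where it was high. The calls of Ccl4 and Ccl17, and the lack of overlap of all of these probes, do not stand as support for a direction. Among the 37 probes well above background on all arrays, 9 were called (24.3%), 4 higher and 5 lower, against 11.9% of all probes under that filter. Of the 11 probes, 3 also differed at least 2-fold, which 0.613% of all probes did with a p below 0.05. The median difference of the 40 was 0.06, and that of all probes was -0.01. The median size of the difference regardless of sign was 0.31 for the members and 0.11 for all probes. With 1 probe per gene, 4 of 22 ligands were called higher and 2 lower (median difference 0.14). The 4 include Ccl4 and Ccl17, so that count does not stand as support for a direction either. Of 9 receptors 0 were called higher and 3 lower (median difference -0.37).

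**Figure D2:**
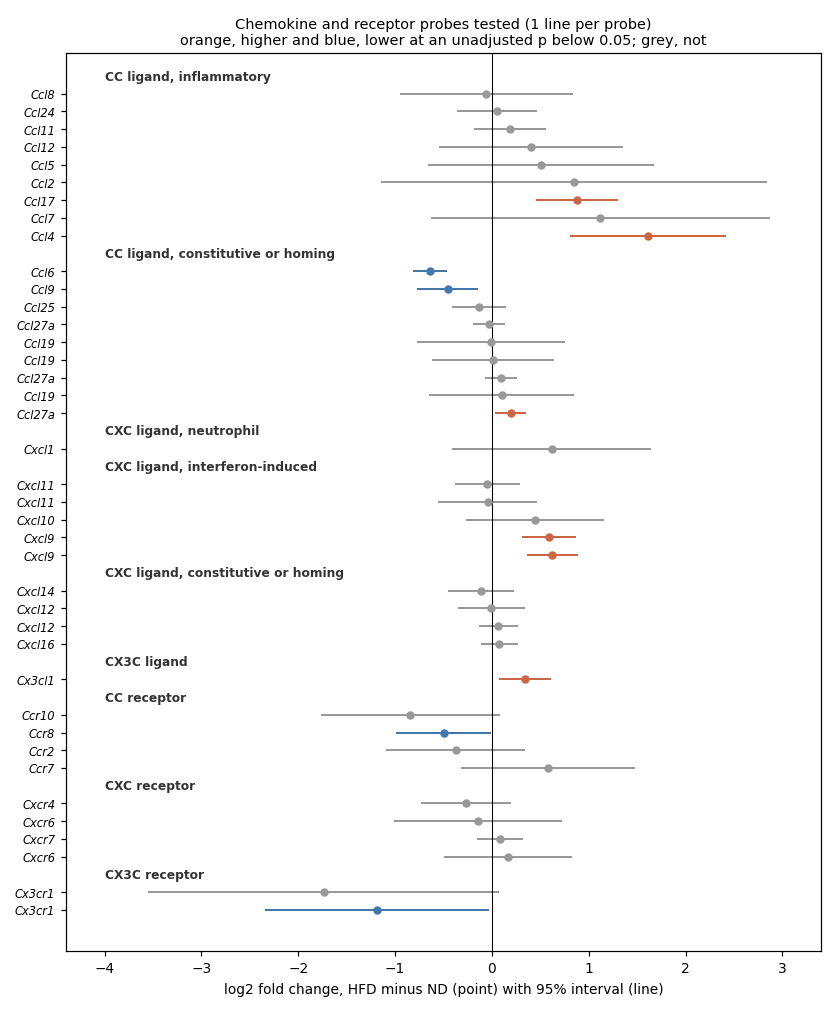
Difference between the diets for 39 of the probes tested, grouped by role (x axis, log2 fold change HFD minus ND; point, limma estimate; line, 95% interval; orange and blue, higher and lower at an unadjusted p below 0.05). Ccl4 (1.61, near background in ND) and Cx3cr1 (-1.18) are called with a difference of at least 1 in size, and the widest intervals belong to Ccl2, Ccl7 and Cx3cr1.

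Among the CC ligands with constitutive or homing roles, the pair Ccl6 and Ccl9, which mouse macrophages and other myeloid cells make without stimulation, was lower in every HFD heart. Ccl6 (chr11:83401997-83402056, on mm9 as all probe positions here) had levels of 3.98, 4.03 and 3.93 in ND 1, ND 2 and ND 3, and of 3.30, 3.43 and 3.30 in HFD 1, HFD 2 and HFD 3. The diets did not overlap, and the gap between them was wider than the spread within either. The difference was -0.64 (SE 0.073), or 64.2% of the ND level, with an unadjusted p of 0.000123 and an adjusted p of 0.0851, the lowest of any member. Of the 17 alternatives that tested Ccl6, the normexp background correction and the variance model with an intensity trend brought it past the adjustment. Its adjusted p ran from 0.0157 to 0.425 over the 17.

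Ccl9 (chr11:83388223-83388282) lay at 3.47, 3.30 and 3.20 in the ND hearts and at 2.75, 3.10 and 2.74 in the HFD hearts. HFD 2 was closest to the ND hearts, but below all of them. The difference was -0.46 (SE 0.130, unadjusted p of 0.0122, adjusted p of 0.289), or 72.8% of the ND level. Ccl6 overlaps E230016K23Rik in the annotation, and the arrays give no means to tell them apart. Both differences kept their direction and an unadjusted p below 0.05 in all 17 alternatives that tested them.

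Ccl6 and Ccl9 are neighbours on chromosome 11 and are read from the same strand. Their promoters are shown because the pair was lower together. RefSeq (GRCm38.p6) gives the 250 bases before each start as chr11:83593088-83593337 for Ccl6 and chr11:83578637-83578886 for Ccl9, both on the minus strand, and capitals mark the longest run that they share.
Ccl6: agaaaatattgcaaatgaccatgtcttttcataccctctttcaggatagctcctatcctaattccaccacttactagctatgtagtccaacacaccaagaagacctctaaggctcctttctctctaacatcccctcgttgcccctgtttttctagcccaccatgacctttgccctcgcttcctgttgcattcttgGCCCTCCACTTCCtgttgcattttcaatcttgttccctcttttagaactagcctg
Ccl9: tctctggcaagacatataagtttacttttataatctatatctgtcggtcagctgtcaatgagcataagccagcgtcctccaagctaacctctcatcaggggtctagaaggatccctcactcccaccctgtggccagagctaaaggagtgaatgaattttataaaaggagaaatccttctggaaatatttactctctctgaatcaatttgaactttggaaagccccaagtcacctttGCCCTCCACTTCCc
The run GCCCTCCACTTCC has 13 bases and begins 55 bases before the start of Ccl6 and 14 bases before that of Ccl9. A run as long was shared by 3 of the 703 pairs of member genes with a promoter sequence, this pair included. It is a likeness of letters and was tied to no factor.

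The other genes of this role were near 0 or split between their probes. Ccl27a, a skin-homing chemokine in its secreted form, had 3 probes tested. The probe at chr4:41716357-41716416 had levels of 1.96, 2.02 and 1.98 in ND and 2.18, 2.14 and 2.23 in HFD, a difference of 0.19 (SE 0.064) with an unadjusted p of 0.0235 and an adjusted p of 0.347. Its diets did not overlap, but the call was lost in 8 of 18 alternatives, and the other probes differed by 0.10 and -0.03 and were not called. Ccl27a overlaps Il11ra1 in the annotation and has near-identical copies beside it, so the probes may not read a single gene. Ccl19, which guides dendritic cells and T cells and also has such copies, gave differences of -0.01, 0.01 and 0.10 over its 3 probes. In all 3, HFD 2 had the lowest level, and without it the differences were 0.36, 0.31 and 0.45. Leaving out the lowest HFD heart raises a difference by construction, and leaving out other hearts gave values down to -0.25, -0.19 and -0.15. Ccl25, a chemokine of thymus and gut, differed by -0.14.

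**Figure D3:**
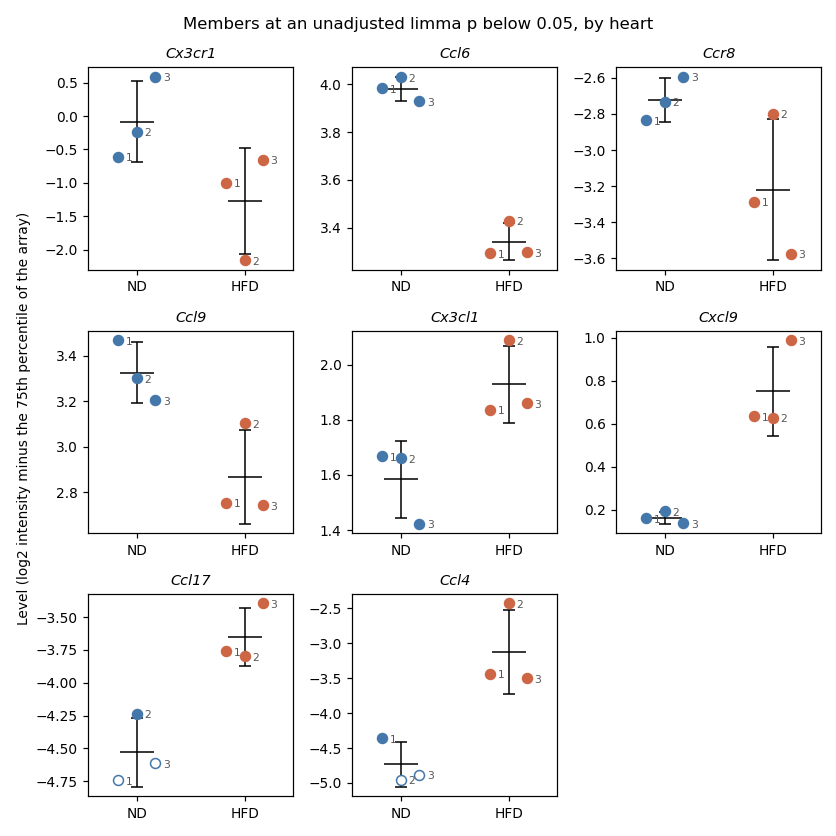
Levels of 8 genes called with their main probe (y axis, log2 intensity minus the 75th percentile of the array; numbers, heart of that diet; open circle, not well above background; black, mean and SD of 3 hearts). The diets do not overlap in 7 of the panels, and for Ccr8 the highest HFD heart reaches into the ND range.

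The inflammatory CC ligands held 9 genes tested, of which 2 were called, both higher (over all probes, 5.24% were called higher), with a median difference of 0.51. Both passed the filter only through the HFD hearts, and their differences, errors and p-values rest on ND values that were mostly near background. Ccl4, made by activated macrophages and lymphocytes (chr11:83478052-83478111), lay at -4.36, -4.96 and -4.88 in the ND hearts and -3.44, -2.43 and -3.50 in the HFD hearts. The diets did not overlap, and among the ND hearts only ND 1 was well above background. The difference was 1.61 (SE 0.328, unadjusted p of 0.00264, adjusted p of 0.205), and with the normexp correction it was 0.50. It describes these arrays and is not a measured fold.

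Ccl17, which dendritic cells make and which draws cells bearing Ccr4 (chr8:97335770-97335829), had levels of -4.74, -4.24 and -4.61 in ND, where only ND 2 was well above background. The HFD hearts lay at -3.76, -3.80 and -3.39, all above the ND hearts. The difference was 0.88 (SE 0.173, unadjusted p of 0.00223, adjusted p of 0.195), and 0.20 with the normexp correction. Its size is uncertain in the same way, and annotation places Ccl4 over part of Ccl3.

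Ccl2 and Ccl7, the main ligands of Ccr2 on inflammatory monocytes, varied widely between hearts of the same diet. Ccl2 lay at 2.07, 2.41 and 0.68 in ND, against 3.11, 3.69 and 0.91 in HFD. HFD 1 and HFD 2 were above all ND hearts, while HFD 3 lay below ND 1 and ND 2. The array carries 10 spots of this probe, which within an array varied with an SD of 0.044 to 0.081 on the log2 scale, far less than the hearts did. The difference was 0.85 (SE 0.815, 95% interval -1.14 to 2.84, unadjusted p of 0.338).

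Ccl7 had levels of 0.61, 0.70 and -0.42 in ND and 2.04, 2.38 and -0.17 in HFD, and its 6 hearts stood in the same order as those of Ccl2. The difference was 1.12 (SE 0.717, unadjusted p of 0.169). Without HFD 3, the lowest HFD heart for both, the differences were 1.68 for Ccl2 and 1.91 for Ccl7, larger by construction. HFD 1 and HFD 2 share the first row of the slide, and within the second row HFD 3 differed from the ND hearts by -0.81 for Ccl2 and -0.47 for Ccl7. Heart and slide row cannot be told apart here. Il6, a cytokine named after its values were seen, was well above background in HFD 1 (-4.25) and HFD 2 (-3.51) alone and was not tested.

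The remaining inflammatory CC ligands were not called. Ccl12, another ligand of Ccr2, lay at -0.64, -0.28 and -1.01 in ND and 0.50, -0.23 and -0.97 in HFD, a difference of 0.41. Within the second slide row it was -0.33. The eosinophil chemoattractants Ccl11 and Ccl24 differed by 0.19 and 0.05, and Ccl8 by -0.06. Ccl5, made by T cells and NK cells, differed by 0.51, and its hearts are described with the interferon-induced ligands.

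**Figure D4:**
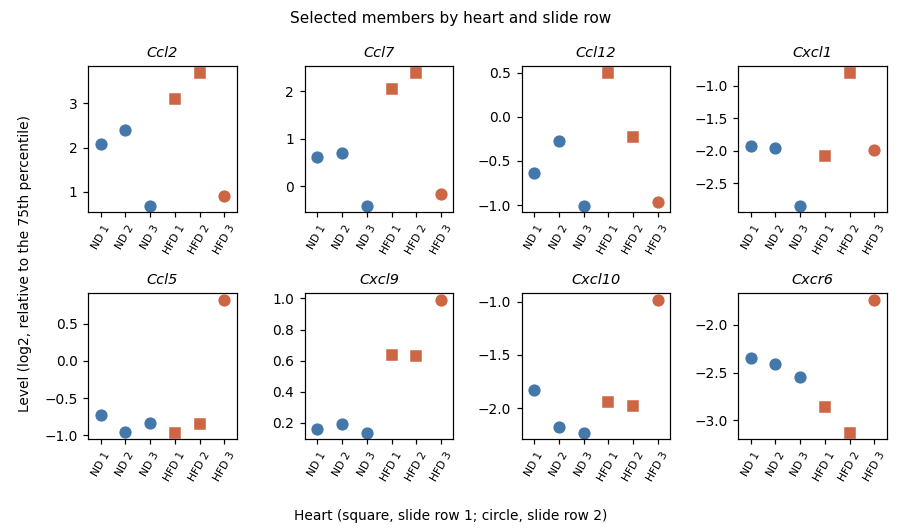
Levels of 8 members in each heart (y axis, log2 relative to the 75th percentile; squares, first slide row; circles, second slide row; blue, ND; orange, HFD). Ccl2 and Ccl7 are highest in HFD 1 and HFD 2, and Ccl5, Cxcl9, Cxcl10 and Cxcr6 are highest in HFD 3.

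Cxcl9, an interferon-gamma-induced ligand of Cxcr3 on activated T cells and NK cells, was higher in HFD by both of its probes. Its brighter probe (chr5:92752191-92752250) lay at 0.16, 0.19 and 0.14 in ND, against 0.64, 0.63 and 0.99 in HFD. The ND hearts were nearly equal and every HFD heart was above them. The difference was 0.59 (SE 0.115), or 150.5% of the ND level, with an unadjusted p of 0.00211 and an adjusted p of 0.191.

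The second probe of Cxcl9 (chr5:92752796-92752855) had levels of -1.47, -1.38 and -1.27 in ND and -0.87, -0.81 and -0.57 in HFD. It separated the diets as well, with a difference of 0.62 (SE 0.106, unadjusted p of 0.00106, adjusted p of 0.149). Both probes had an unadjusted p below 0.05 in all 18 alternatives, with differences of 0.47 to 0.83 and of 0.49 to 0.81.

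The neighbouring Cxcl10, which binds the same receptor and overlaps Art3 in the annotation, was not called. It lay at -1.83, -2.18 and -2.23 in ND, against -1.95, -1.98 and -0.98 in HFD, a difference of 0.44 (SE 0.290, unadjusted p of 0.176). Only HFD 3 stood above the ND hearts. Ccl5 had the same shape, with -0.73, -0.95 and -0.84 in ND and -0.97, -0.85 and 0.82 in HFD (unadjusted p of 0.328), and without HFD 3 its difference was -0.07.

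The 2 probes named Cxcl11 by the array design differed by -0.05 each. They are uncertain: RefSeq lists Cxcl11 as a pseudogene within the span of Art3, and the accession of the probes was not matched there.

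HFD 3 was also highest for Cxcl13, which draws B cells, and Cxcr3, the receptor of Cxcl9 and Cxcl10. Neither was tested. They lay at -1.62 and -2.82 in HFD 3, and at most at -3.15 and -4.18 in the other hearts. Of the T cell markers, Cd3d, named after its values were seen, lay at -2.49 in HFD 3 and at -4.51 to -4.02 in the other 5 hearts. Lck, Cd5 and Cd2 were highest in HFD 3 too. Cd4 was highest in HFD 1 (1.37, against 0.87 in HFD 3) and Cd3e in ND 3 (0.06, against -0.04 in HFD 3). All 10 T cell markers summed to 3.03 to 3.30 times the 75th percentile in ND and 3.45 to 3.87 in HFD, of which HFD 3 had 3.80, and 1 of the 10 was above background on no array. Cd4 made up 57.3% of this sum and Cd3e 27.2%. The part of T cells in the levels of Ccl5 and Cxcl10 was not tested.

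The promoters of Cxcl9 and Cxcl10 are shown because the genes lie side by side and are both textbook interferon targets, while the hearts gave a difference for the first alone at the unadjusted threshold. The difference between these genes was not tested. RefSeq (GRCm38.p6) places the 250 bases before the starts at chr5:92328080-92328329 for Cxcl9 and chr5:92348890-92349139 for Cxcl10, both on the minus strand. Capitals mark matches to the NF-kappaB-like letters GGNNNTTCC and, in Cxcl10 alone, to letters like an interferon-stimulated response element (ISRE), TTTC, any 2 bases and TTTC.
Cxcl9: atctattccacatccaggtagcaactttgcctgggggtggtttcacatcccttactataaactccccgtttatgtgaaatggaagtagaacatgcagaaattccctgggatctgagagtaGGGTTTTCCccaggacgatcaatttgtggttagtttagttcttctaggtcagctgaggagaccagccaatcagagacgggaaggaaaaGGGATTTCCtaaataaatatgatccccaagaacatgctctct
Cxcl10: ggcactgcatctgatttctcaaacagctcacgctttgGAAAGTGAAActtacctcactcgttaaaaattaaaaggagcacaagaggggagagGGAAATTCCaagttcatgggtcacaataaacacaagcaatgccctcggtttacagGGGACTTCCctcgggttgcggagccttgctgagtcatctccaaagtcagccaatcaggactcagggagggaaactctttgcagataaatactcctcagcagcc
Cxcl9 holds GGGTTTTCC starting 130 bases and GGGATTTCC starting 42 bases before its start. Cxcl10 holds GAAAGTGAAA at 213 bases, GGAAATTCC at 158 and GGGACTTCC at 103. Searched on both strands in the 250 bases, the NF-kappaB-like letters occurred in 13 of 42 promoters of 38 members with a sequence (31.0%) and in 15.7% of 32851 mouse promoters. The ISRE-like letters occurred in 3 of the 42 and in 2.98% of all. Of 4 other motifs searched in the same windows, AP-1-like TGANTCA occurred in 5 of the 42 (6.75% of all promoters), GAS-like TTCNNNGAA in 4 (7.02%), ETS-like CAGGAAG in 8 (10.8%) and TATAAA, on the strand of the gene only, in 11 (7.59%). A match describes letters and is not a binding site.

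The other CXC ligands were not called. Cxcl1, which attracts neutrophils, lay at -1.92, -1.96 and -2.85 in ND and -2.08, -0.81 and -1.99 in HFD, with HFD 2 the highest and ND 3 the lowest (difference 0.62, SE 0.419, unadjusted p of 0.191). Cxcl12, the constitutive stromal ligand of Cxcr4, was within 0.07 by its brighter probe, with levels of 5.98, 6.04 and 6.04 in ND and 6.02, 6.22 and 6.03 in HFD. The 95% interval of that difference, -0.13 to 0.27, was among the narrowest of the family. Its other probe differed by less than 0.01. Cxcl14, a chemokine of epithelia and fat, differed by -0.11 and Cxcl16, a membrane-bound ligand of Cxcr6, by 0.08.

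Cx3cl1, or fractalkine, which endothelial cells carry on their surface (chr8:97306185-97306244), had levels of 1.67, 1.66 and 1.42 in ND and 1.84, 2.09 and 1.86 in HFD. The HFD hearts were all above the ND hearts. The difference was 0.34 (SE 0.110), or 1.27-fold, with an unadjusted p of 0.0203 and an adjusted p of 0.330. The call was lost without ND 3 (unadjusted p of 0.0598) and without HFD 2 (0.0548). It was also lost within the second slide row, where HFD 3 was the only HFD heart.

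Its receptor Cx3cr1, found on resident macrophages and patrolling monocytes, was lower. The brighter probe (chr9:119957811-119957870) lay at -0.61, -0.23 and 0.59 in ND and -0.99, -2.16 and -0.65 in HFD. The diets were separated by a narrow gap, since HFD 3 and ND 1 nearly met. The difference was -1.18 (SE 0.474), or 44.0% of the ND level, with an unadjusted p of 0.0464 and an adjusted p of 0.413. HFD 2 was the lowest, and without it the difference was -0.74 (unadjusted p of 0.108).

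The second probe of Cx3cr1 had levels of -3.29, -2.96 and -2.20 in ND and -3.75, -6.25 and -3.67 in HFD, where HFD 2 was not well above background. It differed by -1.74 (SE 0.740, unadjusted p of 0.0569) and by -0.89 without HFD 2. Over 17 alternatives its difference ran from -2.18 to -0.54. This probe entered the test through the ND hearts alone, where it was high, so it does not stand as support for a direction. The brighter probe lost its call in 11 of 18 alternatives, and in none did its direction change. In the annotation, Cx3cl1 overlaps Gm51543 and Cx3cr1 overlaps Gm33858.

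Ccr8, a receptor of Ccl1 and Ccl8 on subsets of T cells (chr9:120003941-120004000), had levels of -2.84, -2.73 and -2.59 in ND and -3.29, -2.80 and -3.57 in HFD. HFD 2 lay within the ND range. The difference was -0.50 (SE 0.202) with an unadjusted p of 0.0483 and an adjusted p of 0.417. Of 17 alternatives, 10 lost the call, and over the 17 the difference ran from -0.85 to -0.25. The other probe of Ccr8 was well above background on no array and was not tested.

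Ccr10, the receptor of Ccl27 and Ccl28, was not called, though its diets did not overlap. It lay at -2.74, -4.02 and -4.19 in ND and -4.38, -4.56 and -4.53 in HFD, a difference of -0.84 (SE 0.379, unadjusted p of 0.068). ND 1 carried most of it, and without ND 1 the difference was -0.39. With the normexp correction the difference was -0.34. Ccr10 overlaps Cntnap1 in the annotation.

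Ccr2, the receptor through which inflammatory monocytes follow Ccl2, lay at -3.21, -3.27 and -3.15 in ND, against -3.76, -4.09 and -2.91 in HFD. HFD 1 and HFD 2 were below and HFD 3 above every ND heart, and the difference was -0.37 (SE 0.294, unadjusted p of 0.250). Without HFD 3, the highest HFD heart, it was -0.71, lower by construction. Among the HFD hearts the order of the Ccr2 levels is the reverse of that of Ccl2.

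The other receptors were not called. Ccr7, which brings cells to lymphatics, lay at -2.13, -3.38 and -2.08 in ND and -2.18, -1.93 and -1.74 in HFD, with a difference of 0.58 (SE 0.367, unadjusted p of 0.163). Only ND 2 stood apart. Cxcr4 differed by -0.27, and Cxcr7, a scavenger of Cxcl12 that RefSeq names Ackr3, by 0.09. The 2 probes of Cxcr6, on T cells and NKT cells, differed by -0.14 and 0.17, with HFD 3 highest on both, and the gene overlaps Fyco1.

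Values of 9 ligand and receptor pairs with both members tested were set side by side. For Cx3cl1 and Cx3cr1 the ligand was higher (0.34) and the receptor lower (-1.18), and among the 9 this was the pair with both members called. Ccl2, Ccl7 and Ccl12 share the value of Ccr2, and both pairs of Cxcl12 share the value of that ligand, so the pairs are not independent. For Cxcl12 and its receptors all 3 differences were under 0.3 in size. No relation between ligands and receptors was tested.

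**Figure D5:**
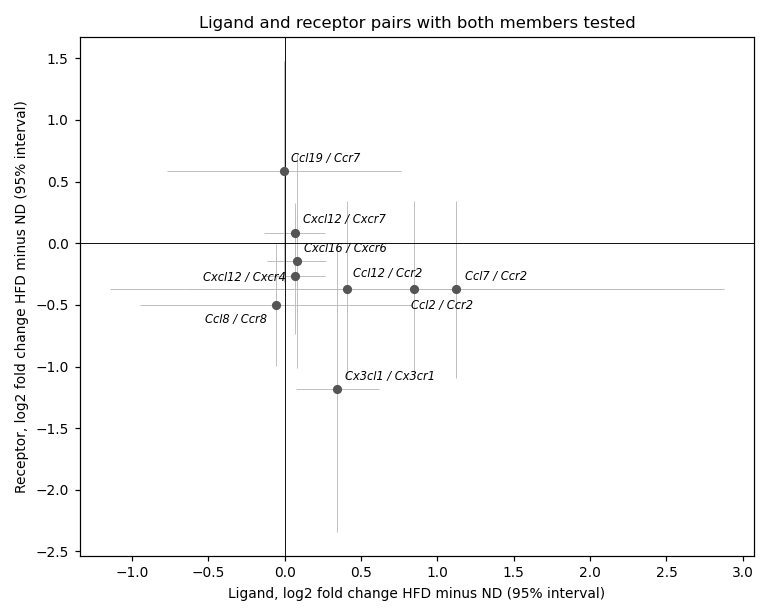
Difference of the ligand (x axis) and of its receptor (y axis), log2 fold change HFD minus ND, for 9 pairs with both members tested, 1 probe per gene (grey lines, 95% intervals). Cx3cl1 with Cx3cr1 lies at a higher ligand and a lower receptor, with intervals that leave out 0 on both axes.

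Genes around the family were taken from 4 lists, whose counts stand against 5.24% of all probes called higher and 6.63% lower (11.9% in all). Of 9 related or decoy receptors and other chemoattractants tested, Cklf, a chemokine-like factor, was called higher (0.48) and Ccrl1, a scavenger of Ccl19 and Ccl25, lower (-0.64), and the median difference was -0.11. Of 9 genes that cut or present chemokines, only Ext1, an enzyme of heparan sulfate synthesis, was called (0.27, higher), with a median of 0.10. Of 20 genes of receptor signalling, 3 were called higher and 2 lower, with a median of 0.02. Among these Grk5, a kinase that desensitises G protein-coupled receptors, was higher by 0.74 (adjusted p of 0.0745), and Pik3cg and Vav1, which act in leukocyte migration, were lower by differences of -0.47 and -0.44. Dock2, which acts in leukocyte migration too and was named after its values were seen, was higher by 0.40, with no overlap between the diets. Rgs1, which limits chemokine receptor signals in lymphocytes, was well above background in no ND heart and in all HFD hearts. With each ND heart set at the dimmest probe well above background on its array, HFD was 1.39-fold higher. This is not a strict lower bound, since some brighter probes were not well above background, as Tnf in ND 2 (-4.66, against -5.06). Rgs1 was tested through the HFD hearts alone. The limma fit to the measured values, those below background included, gave an adjusted p of 0.0563, which is not a test of the 1.39-fold. Of 13 inducers tested, 1 was called higher and 1 lower, Tlr2 (-0.27), a receptor for bacterial lipoproteins, with a median of 0.07. None of these genes passed the adjustment.

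Markers of the cells that carry the receptors were compared in the same way, against the same shares of 5.24% higher and 6.63% lower. In whole hearts, fewer cells of a type and less RNA per cell cannot be told apart. Of 15 macrophage markers, all above background somewhere, 0 were called higher and 1 lower, Cd163, with a median of -0.15, and the list summed to 83.5 to 89.1 times the 75th percentile in ND and 81.1 to 87.0 in HFD. Cd163 differed by -1.10, but was well above background in all ND hearts and not in HFD 2 (-5.21), so that its size is uncertain. It was tested through the ND hearts alone, so its call does not stand as support for a direction. The defining members Emr1 and Csf1r differed by 0.01 and -0.16. Called or not, 5 of the 15 were higher and 10 lower. C1qa (-0.19), C1qb (-0.13), C1qc (-0.17), Mrc1 (-0.17) and Lyz2 (-0.36) were lower without overlap between the diets, but not called. Mertk (0.16) was higher without overlap and not called. Over all probes, 11.1% were lower and 7.92% higher without overlap. Of 5 monocyte markers 3 were lower, Chi3l3 (-2.28), Ms4a4c (-0.33) and Ly6c1 (-0.32), with sums of 235 to 260 in ND and 194 to 202 in HFD. All 5 were above background somewhere. Ly6c1, which endothelial cells also express, made up 71.1% of the summed level and Ms4a4c 28.2%, so the sum says little of the other 3. The part of monocytes in the lower Ccl6, Ccl9 and Cx3cr1 was not tested.

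Of 7 dendritic cell markers tested, Itgax (1.001) and Cd209a (0.82) were called higher, and the median was 0.14. Flt3 (0.28), H2-Aa (0.14), H2-Ab1 (0.10), Cd74 (0.02) and Zbtb46 (-0.16) were not called. The 8 on the array, none of them at background throughout, summed to 58.0 to 62.3 in ND and 54.8 to 78.7 in HFD. Of 6 mast cell markers, Cpa3 (0.81), Mcpt4 (0.54) and Kit (0.39) were called higher. Their sums, with all 6 above background on some array, ran from 1.63 to 1.75 in ND and from 2.12 to 2.69 in HFD. The part of both cell types in the members' levels was not tested. H2-Ab1 made up 68.8% of the dendritic cell sum. T cell markers gave 1 of 6 called higher, Cd5 (0.72). Cd5 was well above background in 2 of 3 ND hearts and was tested through the HFD hearts alone. Its call does not stand as support for a direction. Neutrophil markers gave 1 of 5 higher (Elane, 0.50), B cell markers 1 of 3 lower (Cd79b, -0.34), and NK cell markers 0 of 2. Called or not, 2 of the 5 neutrophil markers were higher and 3 lower, with a median of -0.08. S100a8 (-0.85) and S100a9 (-0.87) were not called. The neutrophil sums were 53.6 to 59.3 in ND and 50.9 to 55.2 in HFD, of which Csf3r made up 90.7%.

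Endothelial markers, which bear on Cx3cl1, gave 2 of 7 lower (Flt1, -0.36, and Kdr, -0.26) and sums of 263 to 277 in ND and 223 to 284 in HFD, of which Fabp4 made up 69.6%. Lymphatic endothelial markers gave 1 of 4 higher (Prox1, 0.59) and 1 lower (Lyve1, -0.35), fibroblast markers 1 of 8 lower (Pdgfra, -0.30), platelet markers 1 of 3 lower (Treml1, -0.75), and erythroid markers 3 of 4 lower (Ahsp, -1.35, Alas2, -0.64, and Hbb-b1, -0.55). Of the markers tested, 0 of 6 mural, 0 of 4 adipocyte, 0 of 1 epicardial, 0 of 1 thymocyte, 0 of 6 ventricular and 0 of 4 atrial ones were called. No marker passed the adjustment.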

How the data were processed

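RNA of 6 mouse hearts, 3 per diet, was hybridised to Agilent mouse arrays (1 colour, Cy3). The authors deposited each array's intensity on a linear scale, from which Agilent Feature Extraction (10.7 per the labels, 10.7.1.1 per the file headers) had subtracted background and a spatial trend, with nothing normalized between arrays. The deposited mean spot and local background intensity served only the normexp alternative (offset 50). The authors also deposited log2 values of the same arrays, whose making is not given in the sources used here. By rank, each column matched its own array (Spearman's rho of 1 when rounded) over any other (at most 0.954), and the values matched quantile-normalized log2 intensities to a median difference of at most 0.00013, so its scale is log2 and no direction or centring stayed unknown. This table, whose column medians were 4.56, served as an alternative.

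Control spots and 127 to 190 outlier-flagged spots per array were left out, each array's 75th percentile was subtracted on the log2 scale, and a probe's spots were averaged. A probe was tested if well above background on all arrays of either diet, with 2 or more arrays measured per diet. limma 3.58.1 (lmFit and eBayes, two-sided, HFD minus ND; R 4.3.3) gave p-values, adjusted over all 27590 by Benjamini-Hochberg. The 3 hearts per diet limit the precision, and an exact permutation test of 3 against 3 cannot go below 0.10, so none was used. No arrays were alike enough to be one library (Pearson's r of 0.990 to 0.995 within a diet). Other software was jsonlite 2.0.0, data.table (version 1.17.8), statmod 1.5.0, matplotlib 3.10.9 and Python 3.11.15. The code was tested on simulated data.

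Of the 67 probes, 62 matched a RefSeq symbol by accession, and other names are those of the array. Probe positions are mm9 as in the files, and RefSeq promoters are GRCm38.p6, so the builds were not joined. Whether a probe lies in coding sequence or a UTR is not given in the sources used here. Promoter motifs were chosen with the sequences in view. A promoter was found for 38 of 53 genes. A gene with several tested probes counts by its brightest. The separate results of 1 member and 1 list gene are not reported here, and figures leave them out, while counts keep them. The other genes tested are named, with every heart's values for probes at an unadjusted p below 0.05 and for the 5 largest increases and decreases, and up to 4 called genes per list. Members, lists and rules were chosen with earlier results of these data known. Alternatives were other normalization, background correction, filters, test, variance model, array weights, replicate block, slide row, the authors' table, averaged probes, outlier spots kept and each heart left out.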

Additional observations from a re-analysis of the deposited data

How the results depend on the processing

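The main count at an unadjusted p below 0.05 was 11 of 40 probes (27.5%, against 11.9% of all probes). Over 18 alternatives it lay between 8 and 14, and with each heart left out it ran from 8 to 14. The number of members tested changed as well. With no filter on dim probes 8 of 67 were called (11.9%, against 6.17% of all probes), and 14 of 42 without HFD 2 (33.3%, against 12.6%). The count past the adjustment was 0, but 1 (Ccl6, lower) with the normexp correction and 1 (Ccl6) with the intensity trend and robust variances. The median difference ran from -0.07 without HFD 3 to 0.14 without HFD 2, and 0.08 within the second slide row. By the software's significance flag 48 probes were above background on all arrays. The replicate numbers were not treated as pairs: deviations of equal numbers correlated at -0.15, 0.15 and 0.19, and not every heart correlated best with its own number. With the replicate block 13 of 40 member probes were called (32.5%, against 10.9% of all probes), 0 past the adjustment.

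Of 40 probes, 17 changed sign somewhere, none of them called. With slide row as a term, that is HFD 3 against ND, values were -0.33 for Ccl12, 0.48 for Ccl19 (A_55_P2099742), -0.81 for Ccl2, -0.47 for Ccl7, 0.042 for Ccl27a (A_55_P2070576), 0.32 for Ccl8, 0.30 for Ccr2, 0.080 and 0.075 for the Cxcl11 probes, 0.086 for Cxcl12 (A_55_P1966204), -0.048 for Cxcl16 and 0.70 for Cxcr6 (A_55_P1962209). Ccl5 (1.66), Cxcl10 (1.097) and both Cxcr6 probes (0.70 and 0.81) were higher in that fit, where HFD 3 was the only HFD heart. Array weights gave 0.13 for Ccl19, 0.0062 for Cxcl11, 0.081 for Cxcl12 and 0.017 for Cxcr6, and the average of a gene's probes gave 0.035 for Ccl19, 0.086 for Ccl27a, 0.031 for Cxcl12 and 0.012 for Cxcr6. Cxcl11 (A_55_P2160387) was 0.023 with quantile normalization and 0.021 in the authors' table, and Ccl19 was 0.0021 with normexp. With each heart left out, values ran from -0.25 to 0.36, -0.19 to 0.31 and -0.15 to 0.45 for Ccl19, -0.064 to 0.22 for Ccl24, -0.069 to 0.83 for Ccl5, -0.26 to 0.29 for Ccl8, -0.12 to 0.078 and -0.21 to 0.14 for Cxcl11, -0.11 to 0.13 for Cxcl12, and -0.56 to 0.13 and -0.15 to 0.33 for Cxcr6. The causes were not tested.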
